A study of Mus musculus with 96 samples.

Results

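Pax6, Sox2, Otx2, Meis1, Sox9 and Ascl3 are transcription factors that mark the olfactory epithelium (OE) or one of its cell types. They were taken by gene symbol as 6 of the 55487 genes in the count table, and each symbol matched 1 gene. The rule itself uses no measured value, but the 6 factors were chosen with earlier results of these data known. All are described in 96 single cells, which are the daughter cells of 48 divisions of cultured horizontal basal cells (HBCs), the reserve stem cells of the OE. The mice were wild type, adult and 6 to 8 weeks old. Their OE was injured with methimazole, dissected 2 days after the injection and digested, and the HBCs were cultured on dishes with a matrix coating that was changed from Tropoelastin to Fibronectin. Each daughter cell was picked by mouth pipette with its sister noted, and a known mix of artificial RNAs, the ERCC spike-in, went into every lysate before G&T-seq, in which RNA with a poly(A) tail is captured and amplified. There was no other condition and no untreated group. No label tells which mouse or culture a cell came from. The cells are therefore 1 sample of 1 group without replicates, and every comparison below is a description of these cells without a p-value.

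The OE arises from the olfactory placode, a thickening of the head ectoderm that is laid down by a network of homeobox, SOX and EYA factors. PAX6, a paired box and homeobox factor, and OTX2, a homeobox factor of the anterior head, belong to that network. In the mature OE, PAX6 and SOX2, an HMG box factor, are known from basal cells and from sustentacular cells, the glia-like support cells. MEIS1 is a homeobox factor of the TALE class, which binds DNA together with PBX partners. SOX9 is known in this tissue from Bowman's glands, and ASCL3, a basic helix-loop-helix factor, from precursors of microvillous cells.

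Promoter sequences are shown for the factor that was counted in the most cells and the factor that was counted in the fewest, with every CG dinucleotide in capitals. They are windows of 300 bases around a RefSeq transcription start (build GRCm38.p6), written 5′ to 3′ on the strand of the gene. The Sox2 window is chr3:34649745-34650044 on the plus strand and the Ascl3 window is chr7:109731683-109731982 on the minus strand.
Sox2: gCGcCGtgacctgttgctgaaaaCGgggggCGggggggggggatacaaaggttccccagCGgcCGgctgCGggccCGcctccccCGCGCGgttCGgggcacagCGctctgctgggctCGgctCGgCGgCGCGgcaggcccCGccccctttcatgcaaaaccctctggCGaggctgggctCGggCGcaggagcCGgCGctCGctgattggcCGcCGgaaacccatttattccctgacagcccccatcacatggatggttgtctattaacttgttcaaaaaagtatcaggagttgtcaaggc
Ascl3: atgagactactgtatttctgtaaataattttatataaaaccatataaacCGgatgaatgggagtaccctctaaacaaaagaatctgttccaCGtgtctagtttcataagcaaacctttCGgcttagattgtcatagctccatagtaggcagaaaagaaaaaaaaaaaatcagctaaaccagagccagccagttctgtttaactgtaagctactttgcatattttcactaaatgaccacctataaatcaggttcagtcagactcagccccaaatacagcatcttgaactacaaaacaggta
The Sox2 window holds 27 CG and the Ascl3 window 3. Windows were found for 5 of the 6 factors, all but Sox9. The window richest in CG held 18 for Pax6, 16 for Otx2 and 15 for Meis1. The letters CG, which read the same on both strands, stand at least once in 94.6% of all 32851 windows. Over 20936 genes with a window the median was 12 CG. It was 24 in the 5471 of these genes that were counted in at least 90% of the 96 cells, and 5 in the 4959 genes counted in some but under 10% of cells. The 4 factors with a window that were counted in most cells thus lie between the medians of these gene groups or above them, and Ascl3 below both.

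Counts on genes ranged from 29454150 to 44849003 per cell, and 11403 to 14632 genes were counted in a cell. A cell was taken to hold a factor when its count was at least 1, and a stricter minimum of 10 is given beside it because a count in these files stands for about 75 aligned bases, which is less than a read. The label of the cells was checked against marker genes. Of 8 HBC markers, Trp63, Krt5, Krt14, Itga6, Itgb4 and Cd44 were counted in all 96 cells, Icam1 in 86 and Krt15 in 68. Markers of other OE cells were mostly rare or missing. Cyp1a2, Sec14l3 and Ermn (sustentacular cells), Muc5b, Gpx6 and Sox10 (Bowman's gland), Foxi1 and Chat (microvillous cells), Kit (globose basal cells) and Cnga2 (olfactory neurons) were at 0 in every cell, which allows a share of up to 3.12% of cells with a count for each. This limit does not cover cells in which a transcript was present and not captured. Aqp5, which stands on the list for Bowman's gland, was counted in all 96 cells with a median of 1007 TPM, and Adcy3 in 81. Markers counted in 10 to 30 cells were Gnal (30), Gng13 (16) and Gap43 (22) of the neuronal lists, Lgr5 (14), Fmo2 (13), Cftr (12), Pou2f3 (11), Trpm5 (10) and the fibroblast gene Pdgfra (15), and the immune gene Cd68 was counted in 74. The endothelial gene Pecam1 was counted in 92 cells but had 10 or more counts in only 5, so a count of at least 1 can be very small. The part of these genes in the results below was not tested.

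Sox2, Otx2, Pax6 and Meis1 were present in nearly all HBC daughter cells, Sox9 in most and Ascl3 in few. Sox2 (ENSMUSG00000074637, chromosome 3, 34650405 to 34652461) was counted in all 96 cells, with 19 to 1854 counts and a median of 572.5. Otx2 (ENSMUSG00000021848, chromosome 14, 48657677 to 48673819) was counted in 93 cells and Pax6 (ENSMUSG00000027168, chromosome 2, 105668900 to 105697364) in 92. Meis1 (ENSMUSG00000020160, chromosome 11, 18879817 to 19018985) was counted in 91 cells. Sox9 (ENSMUSG00000000567, chromosome 11, 112782224 to 112787760) was counted in 78 cells, or 81.2% (exact Clopper-Pearson 95% confidence interval 71.995% to 88.5%, which covers counting error only). Ascl3 (ENSMUSG00000035951, chromosome 7, 109727465 to 109731726) was counted in 5 cells, or 5.21% (1.71% to 11.7%). Thus 4 of the 6 factors were counted in at least 90% of cells, where 14.6% of all 55487 genes were, and 55.2% of the 14463 genes that passed a filter on low counts (at least 10 counts in 10% of cells or more). At 10 or more counts the cells numbered 96 for Sox2, 90 for Pax6, 89 for Otx2, 80 for Meis1, 68 for Sox9 and 4 for Ascl3, so the stricter minimum took most from Meis1 and Sox9. Meis1 then fell to 83.3% of cells.

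**Figure D1:**
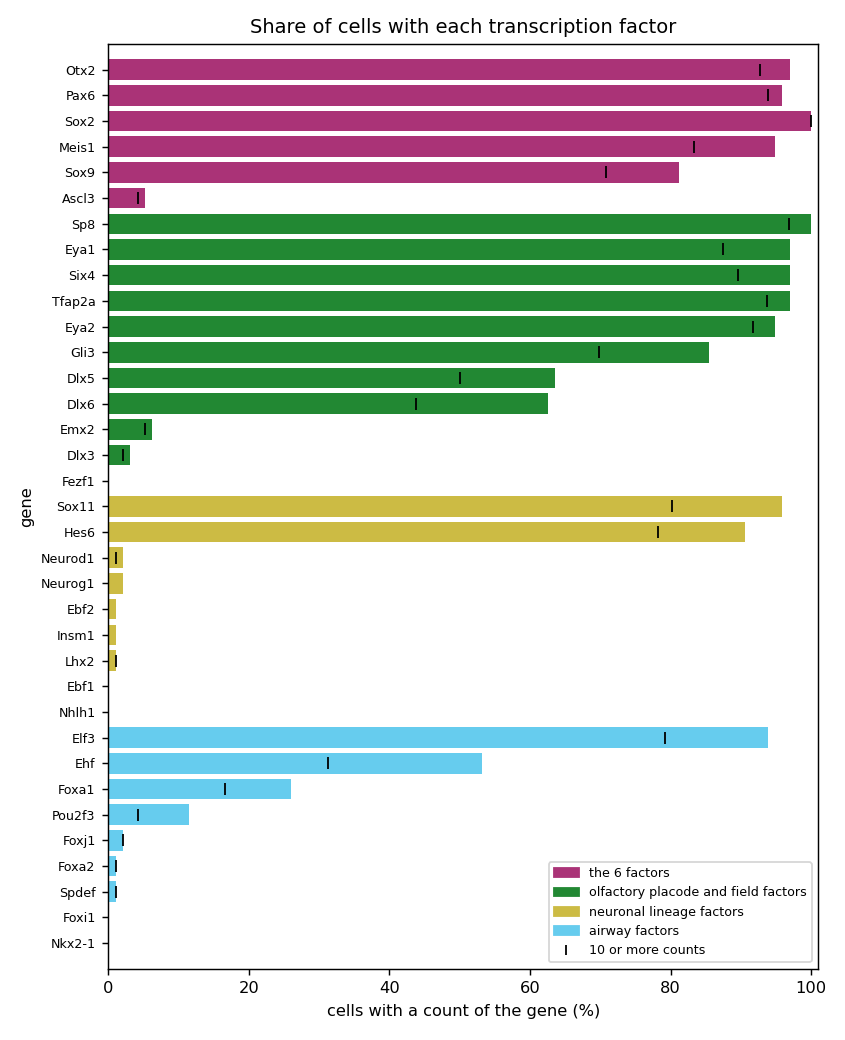
Share of the 96 cells with a count of each gene (bars, percent) and with 10 or more counts (black ticks), for the 6 factors and for lists of olfactory placode, neuronal lineage and airway factors. Sox2, Otx2, Pax6 and Meis1 stand beside the placode factors Sp8, Eya1, Six4, Tfap2a and Eya2 above 90%, and Ascl3 stands at 5.21%.

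Most cells held several of the factors. All of Pax6, Sox2, Otx2 and Meis1 had 10 or more counts in 72 of 96 cells (75%), 19 cells held 3 of them, 5 cells held 2, and no cell held fewer. If the 4 shares are multiplied, 72.4% of cells would hold them all, so the observed share was close to that product. With Sox9 added, 50 cells held all 5 factors. Both sisters held the 4 factors in 28 of 48 pairs, and 1 of the sisters did in 16.

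Levels were compared between the factors as TPM, transcript levels scaled to transcript length and to the size of the library. Otx2 had the highest median, 19.3 TPM, and the widest range, from 0 to 169 TPM, with the lower quartile at 3.44 and the upper at 47.0. Pax6 had a median of 13.9 TPM and ranged from 0 to 119. Sox2 had a median of 13.1 TPM within a narrower range of 0.414 to 41.6. Meis1 had a median of 11.9 TPM and reached 73.6, with a lower quartile of 1.52. Sox9 was lower, with a median of 1.48 TPM, although its highest cell reached 67.5. Neighbours in this order did not separate: Pax6 was above Sox2 in 49 cells and below it in 47, Sox2 above Meis1 in 47 and below it in 49, and Otx2 above Pax6 in 54 and below it in 42. Sox9 stood apart, with less than Pax6 in 76 cells, less than Sox2 in 75 and less than Meis1 in 69. Otx2 was the most abundant of the 5 factors in 39 cells, Meis1 in 21, Pax6 in 17, Sox2 in 12 and Sox9 in 7.

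**Figure D2:**
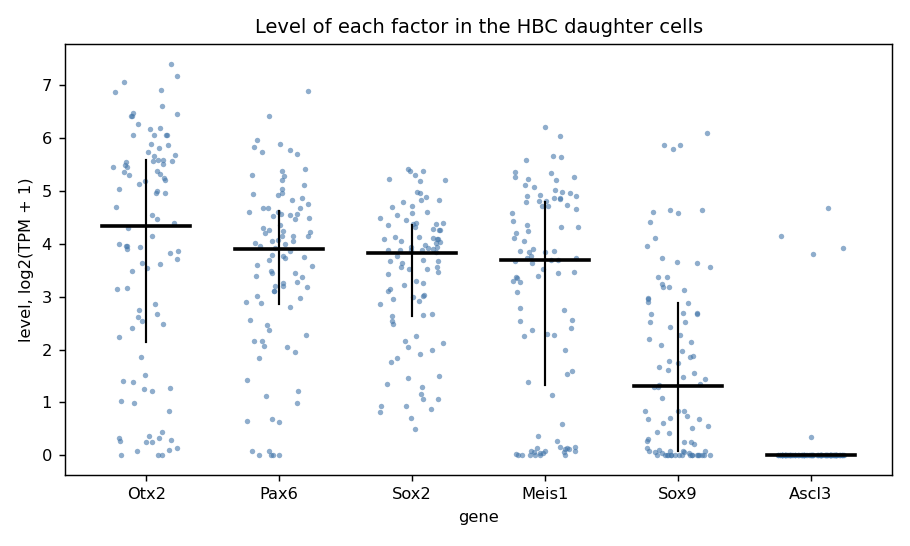
Level of each factor in each of the 96 cells, as log2(TPM + 1), ordered by median. Points are cells, thick lines medians and thin lines the range from the lower to the upper quartile. Otx2 has the highest cells, up to 169 TPM, Meis1 and Sox9 have many cells near 0, and Ascl3 is above 1 TPM in 4 cells.

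The cells also fall into sets. The names under which the data were deposited put the cells in 12 sets of 8, each with 4 complete pairs, and what the sets stand for is not stated. The median of a set ran from 3.02 to 23.0 TPM for Pax6, from 2.45 to 20.6 for Sox2, from 1.32 to 46.6 for Otx2, from 0.0954 to 26.4 for Meis1 and from 0.0217 to 6.79 for Sox9. Between 10.1% (Pax6) and 23.2% (Sox2) of the variance of log2(CPM + 1), where CPM are counts scaled to the total on genes, lay between sets. Sets hold 11.6% of the degrees of freedom, a share that Pax6 and Meis1 (11.7%) did not clearly exceed. The cells without a count of Pax6 still held the main HBC marker: these 4 cells had 22.6, 44.6, 79.03 and 85.8 TPM of Trp63, which encodes the basal cell factor p63, beside a median of 80.2 over all cells.

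How far sister cells differed was asked with the ratio of the higher to the lower sister, on counts scaled to the ERCC spike-in with 1 added. The study takes a ratio of 1.5 as asymmetric. By this cutoff Sox2 differed in 34 of 48 pairs (70.8%), Meis1 in 35 (72.9%), Otx2 in 38 (79.2%), Pax6 in 41 (85.4%) and Sox9 in 42 (87.5%). Over all 14463 genes past the filter and all pairs, 65.2% of ratios passed the cutoff, fewer than for any of the 5. Pairs without a count in either sister have a ratio of 1 and are part of that share, which lowers it for genes counted in few cells. Median ratios over pairs with a count in either sister were 2.27 for Sox2, 2.64 for Pax6, 3.00 for Otx2, 3.18 for Meis1 and 6.36 for Sox9. All of the 5 were above 1.5, as were 89.8% of the 14463 genes past the filter. Ascl3 did not pass this filter. The median of the 5 median ratios was 3.00, and over all 14463 genes it was 3.64.

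Spike-in transcripts, which are added in the same amount to sisters, passed the cutoff in similar shares of pairs. The 5 ERCC transcripts nearest to Sox2 in mean TPM passed 1.5 in 60.4% to 87.5% of pairs, and those nearest to Pax6 in 64.6% to 87.5%. For Otx2 the matched range was 66.7% to 81.2%, for Meis1 60.4% to 87.5% and for Sox9 47.9% to 87.5%. None of the 5 factors had a larger share of asymmetric pairs than the highest of its spike-in transcripts. Median ratios of the transcripts were larger than those of the factors, 12.1 to 186 for the ones near Sox2, 5.43 to 186 for Pax6, 10.6 to 186 for Meis1 and 6.65 to 179 for Sox9. Only near Otx2 did they start below the factor, from 2.62 to 72.3. Sox2 was counted in 100% of cells, while the transcripts near it were counted in 43.8% to 74% of cells. The transcripts were also counted in fewer cells than Pax6 (45.8% to 86.5% against 95.8%) and Meis1 (43.8% to 74% against 94.8%). The ranges held the factor for Otx2 (80.2% to 99% against 96.9%) and Sox9 (30.2% to 88.5% against 81.2%). Near Sox2, Pax6 and Meis1 the transcripts are therefore not a like measure of technical spread. The SD of log2(CPM + 1) over cells was above that of the matched spike-in for Meis1 (2.28 against 1.79 to 2.16) and Sox9 (2.13 against 1.25 to 1.87), below it for Sox2 (1.33 against 1.61 to 2.40), and within it for Pax6 and Otx2.

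Single pairs show the range. In the pair most unlike for Sox2, the sisters had 19 and 935 counts, and in the pair most alike they had 967 and 940. Pax6 had 1452 counts in a daughter cell of pair 24 and none in its sister, and 531 and 525 counts in pair 13. Meis1 was absent from a sister and at 2595 counts in the other in that same pair 13. Otx2 had 2116 counts beside 0 in pair 22, and neither sister of pair 5 had any, while 46 pairs held it in both. Sox9 had 1805 counts beside 0 in pair 23, was missing from both sisters of 4 pairs and was counted in both of 34. A difference of at least 10-fold was found in 6 pairs for Sox2, 9 for Pax6, 11 for Otx2, 19 for Meis1 and 19 for Sox9. Such differences were thus found in more pairs for Meis1 and Sox9 than for Sox2. The matched spike-in transcripts had median ratios of 10.6 to 186 near Meis1, 6.65 to 179 near Sox9 and 12.1 to 186 near Sox2. Small counts can pass 10-fold too, as in pair 12 with 7 and 0 counts of Sox9.

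**Figure D3:**
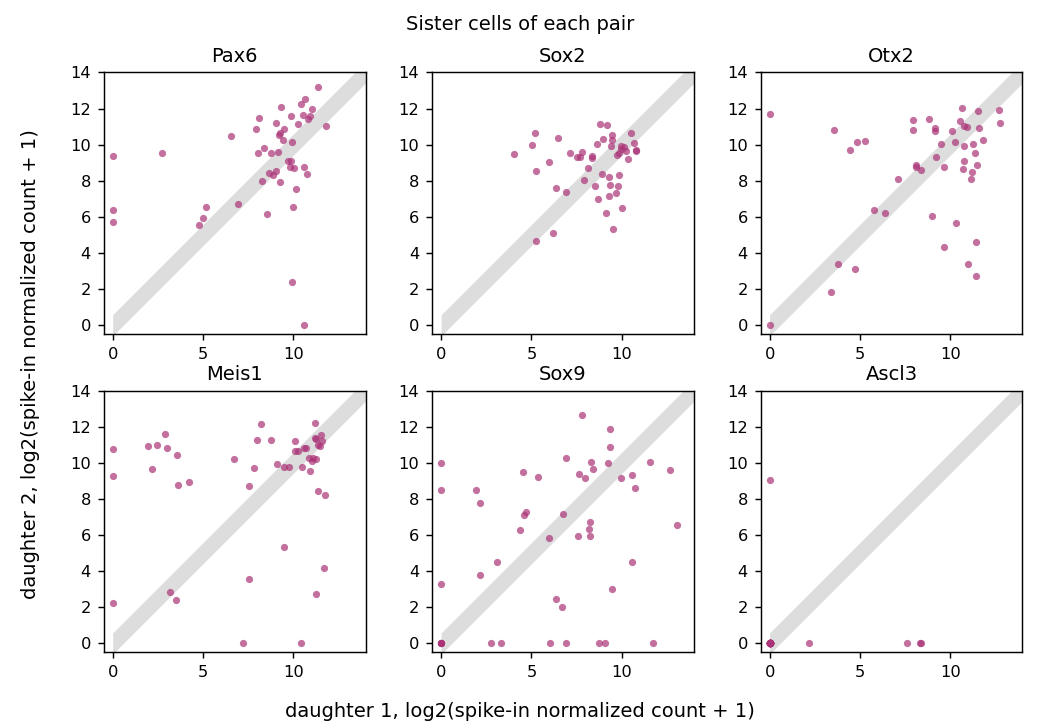
Daughter 1 against daughter 2 of the 48 pairs for each factor, as log2(spike-in normalized count + 1). Points are pairs and the grey band holds ratios under 1.5. Sox2 pairs gather at high values in both sisters, whereas Meis1 and Sox9 have many pairs along the axes, where a sister has few or no counts, and all 5 Ascl3 pairs lie on an axis.

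Sisters differed by less than other cells in the median, for each of the 5 factors, which was not tested. On log2(CPM + 1) the median absolute difference between sisters was 1.41 for Pax6, and between cells of the same set that were not sisters it was 1.69 over 288 combinations. The same medians were 1.34 and 1.88 for Otx2, 1.26 and 1.87 for Meis1, and 1.52 and 2.03 for Sox9. Sox2 differed least, with 1.05 between sisters and 1.13 between cells that were not. For Sox9, sisters were in the same state, counting 10 or more counts as present, in 70.8% of pairs, and cells of the same set that were not sisters in 57.6%. For Pax6 these shares were 87.5% and 88.2%. At the ratio of 1.5 there was no such gap for Pax6, with 85.4% of sister pairs and 84.4% of the other combinations of the set, or for Sox9, with 87.5% of both. The shares were 70.8% and 76.7% for Sox2, 79.2% and 83.3% for Otx2, and 72.9% and 80.2% for Meis1.

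**Figure D4:**
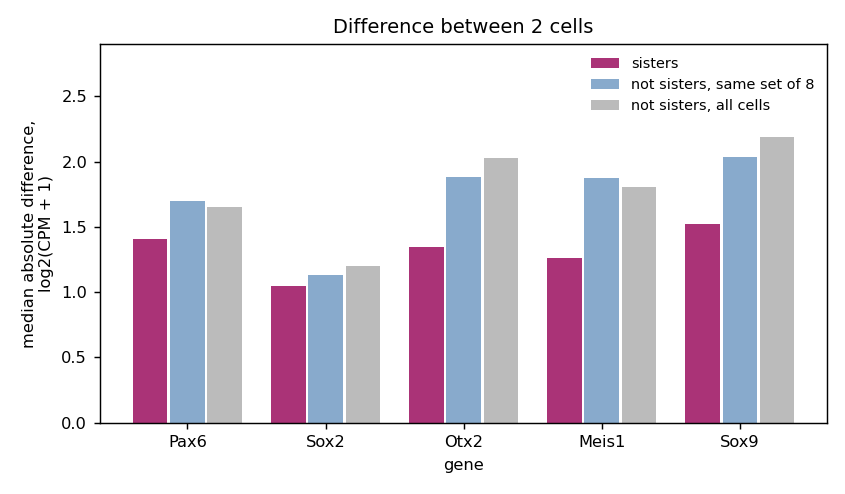
Median absolute difference in log2(CPM + 1) between 2 cells for the 5 factors that passed the filter on low counts. Bars give the 48 sister pairs, the 288 combinations of cells in the same set that are not sisters, and all 4512 combinations that are not sisters. The sister bar is the lowest for each factor, and the gap is smallest for Sox2, 1.05 against 1.13.

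The intraclass correlation, the share of variance that sisters have in common, was 0.38 for Pax6, 0.32 for Sox9, 0.28 for Otx2, 0.11 for Sox2 and 0.08 for Meis1. Over all 14463 genes the median was 0.11. None of the 5 reached 0.5, a level that 4.40% of genes reached. Pax6 lay at the 89.2 percentile of genes, Sox9 at 84.3 and Otx2 at 79.8, while Sox2 (48.99) and Meis1 (42.4) lay near the middle. After the mean of each set of 8 cells was taken off, the values were 0.30 for Pax6, 0.18 for Sox9, 0.07 for Otx2, -0.05 for Meis1 and -0.17 for Sox2, beside a median over all genes of -0.04. Pax6 had the highest of the 5 values in both of these, but on counts scaled to the spike-in Otx2 (0.34) and Sox9 (0.34) lay above Pax6 (0.31), and on ranks Sox9 (0.34) did. The formula kept its degrees of freedom when set means were taken off, which lowers every value found that way, the median over all genes included. The fall after that step therefore does not measure the sets. Nor does a value below 0 there mean that sisters were less alike than other cells.

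Ascl3 was counted in few cells, and no pair held it in both sisters. Its 5 cells had 385, 225, 222, 173 and 4 counts, in pairs 10, 15, 17, 23 and 19, and in none of these pairs did the sister have a count. So few cells cannot show whether sisters differ more than other cells. Counting 10 or more counts as present, sisters were in the same state in 91.7% of pairs. Cells of the same set that were not sisters were so in 91.7% of combinations. The ratio of 1.5 was passed in 10.4% of sister pairs and 10.1% of these combinations. The levels of the 4 cells with more than 10 counts were 12.9 to 24.7 TPM. ERCC transcripts that were counted in at most 19 cells had a median of 20.1 TPM where they were counted at 10 or more. The 4 Ascl3 levels lay around that value. All 5 cells held 10 or more counts of each of Pax6, Sox2, Otx2, Meis1 and Sox9, as did 50 of all 96 cells. In the order of pairs given above, 14011, 12806, 14535, 14632 and 12598 genes were counted in them, beside a median of 12865.5 over all cells. The part of this in what they held was not tested. Their Krt5, a basal keratin, was between 839 and 4433 TPM, beside a median of 2090 over all cells. In the same order of pairs, Trp63 was at 39.3, 256, 51.4, 17.8 and 148 TPM, beside a median of 80.2. Krt14 had 128084, 131468, 121473, 58137 and 8350 counts, beside a median of 135243. Of 10 microvillous markers, the 5 cells held 0 to 2, and any marker was counted in 40% of them and in 44% of the other 91 cells.

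Overlapping transcripts matter for these genes because the library was not stranded, so that sense and antisense reads cannot be told apart where exons overlap. Otx2 shares 154 exonic bases with Otx2os1 on the opposite strand, which was counted in 35 cells, and 168 with Gm49154 on its own strand, counted in 10. In the 26 cells with 10 or more counts of Otx2os1 the median level of Otx2 was 43.3 TPM, and in the other 70 cells it was 14.5. Both ranged widely, since Otx2 in the first group ran from 0.194 to 169 TPM. Sox2ot, on the same strand as Sox2 and around it, was counted in 22 cells and shares no exonic base with it. Sox2 had a median of 11.4 TPM in the 17 cells with 10 or more counts of Sox2ot and 13.7 in the others. Pax6os1 was counted in 9 cells and shares no exonic base with Pax6. Meis1 shares 1029 exonic bases with Gm37818 on its own strand and 896 with Gm16140 on the opposite strand, counted in 65 and 4 cells.

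The 5 factors varied largely apart from each other over cells. Of their 10 pairwise Spearman correlations over the 96 cells, on log2(CPM + 1), the highest was 0.20 (Pax6 with Meis1, Pearson's r 0.23) and the lowest -0.16 (Otx2 with Meis1, Pearson's r -0.08), and the median was 0.02. The cells share pairs, sets and culture, and the points are not independent. Pax6 and Meis1 also rose with the number of genes counted in a cell (Spearman correlations 0.30 and 0.22). For Sox2, Otx2 and Sox9 these values were 0.02, 0.05 and 0.01. The part of this in the correlation of Pax6 with Meis1 was not tested. Within pairs, the sister with more Pax6 also had more Meis1 in 28 pairs and less in 20, and the same count was 24 and 24 for Pax6 with Sox2. The same daughter had more of all 4 widely counted factors in 10 of 48 pairs.

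Other factors of the olfactory placode, from a list chosen with earlier results of these data known, were often counted too. Of 11 listed, 5 were counted in at least 90% of cells and 8 were counted in at least 50% of cells, where 22.4% of all genes were. Sp8, a zinc finger factor, was counted in 96 cells with a median of 7.08 TPM, and the transcriptional coactivator Eya2 in 91 cells with 30.2 TPM. Six4 was counted in 93 cells, Eya1 in 93, Tfap2a in 93, Gli3 in 82, Dlx5 in 61 and Dlx6 in 60. Dlx3 (3 cells), Emx2 (6 cells) and Fezf1 (0 cells) were rare. Of 9 neuronal lineage factors, only Hes6 (87 cells) and Sox11 (92 cells) were counted in at least 50% of cells, while Neurog1, Neurod1, Insm1, Lhx2 and Ebf2 were each counted in 1 or 2 and Nhlh1 and Ebf1 in none. Of 9 airway factors, Elf3 (90 cells) and Ehf (51 cells) reached 50%, whereas the lung and thyroid factor Nkx2-1 was counted in none.

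Otx2 had more of the larger correlations with placode factors than the other 4, a difference that was not tested. Its Spearman correlation over cells was 0.37 with Dlx6, 0.33 with Dlx5, 0.32 with Sp8 and 0.27 with Eya1. These 4 of the 8 widely counted placode factors lay above 0.24, the value that 2.5% of all genes exceed for Otx2. The median over the 8 was 0.24, and over all genes 0.00055. Otx2 with Dlx6 had a Pearson's r of 0.33, and 0.31 without the 2 cells farthest from the median of Otx2. Its Spearman correlation was 0.34 on counts scaled to the spike-in, 0.37 with set means taken off, 0.52 over the means of sisters and 0.13 over the differences between sisters. The difference between the last 2 values was not tested. Over the differences between sisters the median over the 8 factors was 0.11 for Otx2 and 0.18 for Sox2, so there Otx2 did not stand first. Sox2 had 1 such factor, Dlx5, at 0.37, and Pax6 had 1, Six4, at 0.27. Meis1 and Sox9 had none, and their medians over the 8 were -0.0036 and -0.01. The larger correlations of Otx2 were not limited to placode factors. Of 6 widely counted SOX factors, Sox21 (0.30) and Sox7 (0.26) also lay above 0.24 for Otx2. For each of the other 4, no SOX factor lay above the value that 2.5% of all genes exceed. No widely counted factor of the neuronal lineage, airway, OTX, or MEIS and PBX lists lay above 0.24 for Otx2.

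**Figure D5:**
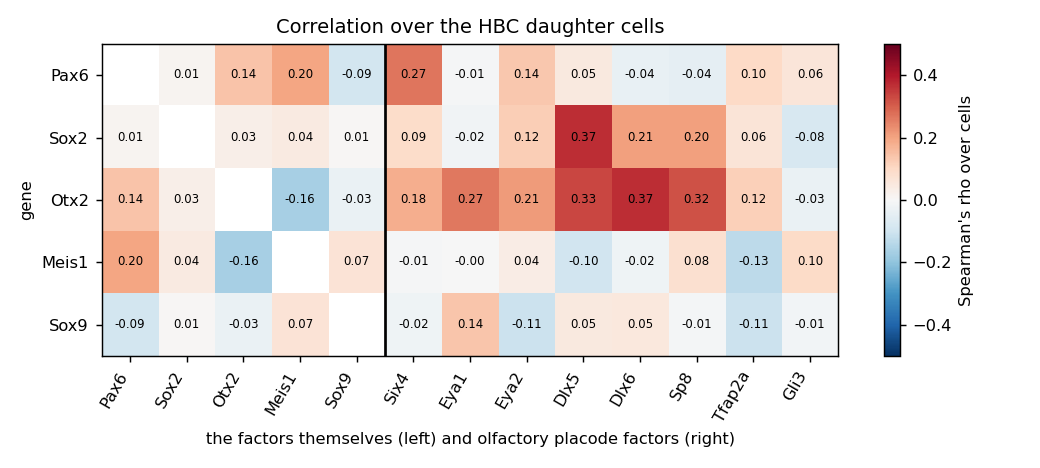
Spearman's rho of log2(CPM + 1) over the 96 cells, between the 5 factors (left of the line) and with the 8 placode factors counted in at least 50% of cells (right). The row of Otx2 holds 4 values above 0.24, up to 0.37 with Dlx6, and the values among the 5 factors lie between -0.16 and 0.20.

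Relatives of the 6 factors differed in how widely they were counted. Otx1 was counted in all 96 cells with a median of 24.6 TPM, near that of Otx2, and Crx, the third member of the family, in 1. Among the PBX and PKNOX genes, Pbx3 was counted in 66 cells and Pknox1 in 90, and Meis2 was counted in 95 with a median of 19.0 TPM. Sox4 was counted in 95 cells, Sox11 in 92, Sox15 in 85, Sox21 in 64, Sox7 in 54 and Sox12 in 54. Of the other PAX genes, Pax9 was counted in 32 cells and Pax8 in 15, and each of the rest in at most 2. Ascl2 was counted in 22 cells. Sox3 and Sox8, close relatives of Sox2 and Sox9 respectively, were counted in none, which allows up to 3.12% of cells for each.

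Correlations of the 5 factors with lists for cell states lay between -0.33 and 0.30 over cells. Otx2 went down as the mean level of 8 squamous genes, such as Sprr1a and Krt16, went up (rho -0.33) and up with 5 airway and xenobiotic genes, such as Adh7 and Aqp4 (rho 0.30). Both were near 0 over the differences between sisters (-0.05 and 0.03). Sox9 had -0.27 with the airway and xenobiotic list. Meis1 had -0.32 with the mean of H3f3a and H3f3b, the genes of histone H3.3, but 0.02 on counts scaled to the spike-in, so its direction depends on the scaling. Pax6 had 0.10 with H3.3 over cells and 0.36 over the differences between sisters, although the sister with more H3.3 had more Pax6 in 25 pairs and less in 23. Several values were larger on counts scaled to the spike-in, where Pax6 had 0.36 with H3.3 and 0.30 with 8 mitosis genes (0.17 on CPM), Sox2 had 0.30 with H3.3 (0.06 on CPM) and Meis1 had 0.24 with the basal markers (0.13 on CPM). With the basal markers Trp63, Krt5 and Krt14 the values of the 5 factors were between -0.12 and 0.13.

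The genes most like each factor were named by the largest Spearman correlations over the 96 cells among the 14463 genes. For Otx2 these were Gclm (0.48) and Nqo1 (0.48), both enzymes of the antioxidant response, then Tmem38a (0.45) and Card19 (0.45). Anxa2 (-0.45), Uck2 (-0.45), Ifi209 (-0.43), S100a10 (-0.43) and Hsp90aa1 (-0.42) were the most opposed to it. Pax6 was closest to Gpank1 (0.42), the stress response factor Atf4 (0.40), Rab21 (0.38), Bora (0.38) and Ripk3 (0.36). Tiparp (-0.35), Stat3 (-0.35), Arpc5 (-0.34) and Oma1 (-0.34) lay opposite. For Sox2 the list was Ppp1r12c (0.43), Tcea2 (0.37), Dlx5 (0.37), Gm8181 (0.35) and Gm3150 (0.34), with Tmco3 (-0.36), Wdfy2 (-0.36), Gm38077 (-0.35), Psmf1 (-0.34) and Fbxl14 (-0.33) opposed.

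Meis1 was closest to Ccdc3 (0.40), Micall1 (0.40), Gm37818 (0.40), Phgdh (0.39), an enzyme of serine synthesis, and Ctnnbl1 (0.39). Gm37818 is the transcript that shares exonic bases with Meis1. Micos13 (-0.38), Gatd3a (-0.36), Gm17494 (-0.34) and Septin7 (-0.34) were opposed. Sox9 was closest to Rrad (0.38), Plk2 (0.38), Gm45629 (0.37), Bicc1 (0.35) and Lrrc8c (0.35). The glutathione transferase Gsta2 (-0.41), Mrpl24 (-0.40), Psma5 (-0.40), Avpi1 (-0.39) and Tkt (-0.39) lay opposite. These are the extremes of 14462 values for each factor. Which genes head the list depended on the scaling: of the 5 positive genes, 3 for Otx2, 2 for Pax6, Meis1 and Sox9 and 0 for Sox2 were also among the first 5 on counts scaled to the spike-in. Of the 5 negative genes, 3 for Sox2, 1 for Otx2 and 0 for Pax6, Meis1 and Sox9 stayed among the 5 most opposed there.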

How the data were processed

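The authors sequenced 96 single-cell cDNA libraries, trimmed the reads with Trimmomatic 0.39, aligned them with STAR 2.7.11a to GRCm38 with the ERCC sequences added, and quantified genes with StringTie 2.2.1, per the labels and the methods. The deposited files are a table of whole-number estimated counts per gene, without normalization, and a table of TPM per cell, scaled by the authors to a sum over genes and ERCC transcripts. In 96.1% of 349971 values of genes with a single transcript, the deposited count was the coverage multiplied by the transcript length, divided by 75 and rounded up, so a count is about 75 aligned bases rather than a read. The library has no molecular identifiers, and intervals and limits (3 counts of the total where a count is 0) cover counting error only. ERCC transcripts took 1.06% to 5.75% of counts.

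Each cell was scaled by its median ratio to the 22 ERCC transcripts present in every library, and these factors ranged from 0.378 to 1.89. Sister ratios used the normalized count with a pseudocount of 1. Intraclass and Spearman correlations used log2(CPM + 1). A filter on low counts, at least 10 in 10% of cells or more, left 14463 genes. No 2 cells held the same data, since their Pearson correlations across genes reached at most 0.813. Gene positions come from the deposited files, exon overlaps from a GENCODE annotation of GRCm38 and promoter windows from RefSeq. The mouse and culture of each cell are not given, so no test between groups was possible and none was run. The calculations were tested on simulated data and run in Python 3.11.15 (pandas 2.3.3, numpy 2.4.6, scipy 1.17.1), with figures drawn in matplotlib 3.10.9. The 6 factors, and the lists of other factors, markers and states, were chosen with earlier results of these data known. The genes named are the factors, their overlapping genes, the 5 positive and 5 negative genes most correlated with each, and the listed genes counted in at least 50% of cells or, for cell types, past the filter. Other listed genes are named after their values were seen, as are the promoter windows, the overlapping Gm37818, Gm16140 and Gm49154 and the single pairs. Some genes of these lists are not reported here and were left out of the factor and marker lists and their counts.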

Additional observations from a re-analysis of the deposited data

How the results depend on the processing

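No paired analysis was possible because a replicate block links samples of different groups and all cells belong to 1 group. Sisters within that group were compared as pairs in every result on ratios and differences. The cells in which a factor was counted fell with a stricter rule. At a TPM of at least 1 they were 90 for Sox2, 86 for Pax6, 80 for Otx2, 73 for Meis1 and 51 for Sox9, and 1 factor (Sox2) rather than 4 then reached 90% of cells. At 10 or more counts Meis1 was in 80 cells and Sox9 in 68. On spike-in scaled counts, and likewise on CPM, which are not scaled to length, 2 of the 6 factors kept their place in the order of median levels, and Meis1 came first. With a cutoff of 2 the pairs past it were 30 for Pax6 and 28 for Otx2, and on TPM the Sox9 pairs past 1.5 were 35. With the mean of each set taken off, the intraclass correlation was -0.17 for Sox2, 0.0696 for Otx2 and 0.18 for Sox9. These values are lowered by the formula, which kept its degrees of freedom. The correlation of Pax6 with Meis1 was 0.32 on spike-in scaled counts. That of Pax6 with Sox2 was 0.16 on spike-in scaled counts and 0.16 over differences between sisters. Sox2 with Meis1 was -0.11 over means of sisters. Sox2 with Sox9 was 0.10 on spike-in scaled counts, 0.0662 with set means taken off and -0.0572 over means of sisters. Otx2 with Meis1 was -0.0370 with set means taken off and -0.0113 over differences between sisters. The correlation of Meis1 with the H3.3 list changed sign on spike-in scaled counts, to 0.0166. Beyond the lowering of intraclass correlations by the formula, the cause was not tested in any of these. Of 276 recomputed values, 211 stayed within the error of the reported value, and 65 moved. Of 195 recomputed correlations 33 had the opposite sign, and 32 of these had been reported at a size under 0.2, the exception being Meis1 with the H3.3 list. The error was the 95% counting interval for numbers of cells and pairs, a factor of 1.5 for numbers of genes, and the SE from leaving out each of the 12 sets for correlations, a rule set after seeing the data. The lowest and highest leave-one-out values were among those recomputed. They could hardly fall outside an SE built from them, so that they stayed says little. All 5 factors kept a median sister ratio of at least 1.5 under each alternative run for it, and 0 reached an intraclass correlation of 0.5 under any. The alternatives over differences and means of sisters for the lists, and the leave-one-out sets for the intraclass correlations, were chosen after seeing the data.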
